A study of Mus musculus with 62 samples.

Results

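Glutathione S-transferases were followed in mice given a mixture of polychlorinated biphenyls (PCBs, persistent industrial chemicals) by mouth. The family was taken as 10 genes listed by mouse Entrez identifier, of 18821 genes in the 3 count tables of the study. They are Gsta2, Gsta3 and Gsta4 of the alpha class, Gstm1, Gstm2, Gstm3 and Gstm4 of the mu class, Gstp1 of the pi class, and Gstt1 and Gstt3 of the theta class. All animals were female C57BL/6 mice, an inbred strain with no engineered allele named in the labels, and received the MARBLES mixture at 0.1, 1 or 6 mg/kg, or vehicle (0 mg/kg). RNA was sequenced from liver (4 vehicle libraries, 4 at 0.1, 6 at 1 and 6 at 6 mg/kg) and from punches of prefrontal cortex and of striatum (4, 5, 6 and 6 libraries in each). Age, the number and timing of doses and the vehicle's composition are not given in the sources used here. The labels do not say that the libraries of a group came from separate mice, so p-values measure the spread between these libraries.

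Glutathione S-transferases join the tripeptide glutathione to electrophilic compounds, the second phase of the breakdown of foreign chemicals, and the conjugates are then exported and processed to mercapturates. The cytosolic enzymes are dimers grouped by sequence into classes, and the liver is a main site of the alpha, mu and theta classes. Several members are known targets of NRF2, which binds antioxidant response elements, and of the xenobiotic receptors CAR, PXR and AHR.

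All 10 members had a row in the liver table and all 10 passed the filter on low counts there. In the prefrontal cortex 9 had a row and 7 passed, and in the striatum 8 had a row and 8 passed. Gstm3 in both brain regions and Gsta2 in the striatum were not analysed here. Library totals ran from 7381179 to 10203247 counts in liver, 8722232 to 12135200 in prefrontal cortex and 8283032 to 12019651 in striatum. Levels are given as CPM, the count of a gene relative to the TMM-scaled total of its library. The hepatocyte marker Alb, the albumin gene, was at 71874 to 84700.5 CPM in vehicle liver and 0 to 0.228 CPM in vehicle prefrontal cortex. The neuronal marker Snap25 was at 2097 to 2611 CPM in vehicle prefrontal cortex, 1106 to 1392 CPM in striatum and 0 to 13.4 CPM in liver. In bulk tissue, fewer cells of a type and less RNA per cell cannot be told apart. Genes of a class resemble each other in sequence, and the treatment of reads with more than 1 match is not given in the sources used here, so the division of reads between Gstm genes, between Gsta1 and Gsta2, and between Gstp1 and Gstp2 is uncertain.

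The 4 mu genes lie together on chromosome 3 (GRCm38.p6, the assembly also called mm10) between 107963696 and 108045179, all on the minus strand, and Gstt3 and Gstt1 lie together on chromosome 10 between 75774117 and 75798584. RefSeq promoter windows, from 250 bases before to 50 after the start site, were read for 9 members, without Gsta4. Of these, 4 are printed because the results turn on them: Gsta3 and Gstm2 had the smallest p-values in liver, and Gstm1 and Gstm3 varied most closely with each other or with Gstm2. They are read 5′ to 3′ on the gene's strand, at chr1:21240335-21240634 (plus strand, Gsta3), chr3:108017924-108018223 (minus, Gstm1), chr3:107986371-107986670 (minus, Gstm2) and chr3:107969125-107969424 (minus, Gstm3). Capitals mark matches to the core letters of the antioxidant response element, TGACNNNGC, or of the AHR element, GCGTG, searched on both strands.
Gsta3: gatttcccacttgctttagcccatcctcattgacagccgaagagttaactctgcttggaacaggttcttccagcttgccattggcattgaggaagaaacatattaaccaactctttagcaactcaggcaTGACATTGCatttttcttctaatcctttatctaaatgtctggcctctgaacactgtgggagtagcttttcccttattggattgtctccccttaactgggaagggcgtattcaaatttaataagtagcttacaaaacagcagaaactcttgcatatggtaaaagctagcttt
Gstm1: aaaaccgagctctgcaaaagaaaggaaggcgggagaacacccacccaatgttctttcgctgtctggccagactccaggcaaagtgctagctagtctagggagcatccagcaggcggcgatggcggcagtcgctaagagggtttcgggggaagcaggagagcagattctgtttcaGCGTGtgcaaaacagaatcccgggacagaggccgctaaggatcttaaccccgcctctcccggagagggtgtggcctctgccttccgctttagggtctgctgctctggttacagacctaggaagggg
Gstm2: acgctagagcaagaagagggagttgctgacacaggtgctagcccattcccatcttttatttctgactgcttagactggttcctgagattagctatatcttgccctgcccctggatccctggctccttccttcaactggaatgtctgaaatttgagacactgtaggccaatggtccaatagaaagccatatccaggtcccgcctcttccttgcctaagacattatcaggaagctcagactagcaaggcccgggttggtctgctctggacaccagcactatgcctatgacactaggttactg
Gstm3: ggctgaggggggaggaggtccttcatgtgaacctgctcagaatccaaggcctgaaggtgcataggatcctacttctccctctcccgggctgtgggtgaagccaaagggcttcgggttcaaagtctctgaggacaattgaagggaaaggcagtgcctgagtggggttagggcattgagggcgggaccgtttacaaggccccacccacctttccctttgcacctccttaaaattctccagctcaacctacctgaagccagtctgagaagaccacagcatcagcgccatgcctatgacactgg

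The Gsta3 window held 1 match to TGACNNNGC, beginning at position -121 from the start site; 12.4% of 32851 promoter windows of the same length hold these letters. The Gstm1 window held 1 match to GCGTG at position -76, as did those of Gsta2 (-7) and Gstp1 (-13); 32.4% of all windows hold it. Gstm2, Gstm3, Gstm4, Gstt1 and Gstt3 held neither set of letters. No member window held the nuclear receptor half-site AGGTCA (16.3% of all windows) or the E-box CACGTG (7.15%). Aligned over their whole length, the Gstm2 and Gstm3 windows were 48% identical and the Gstm1 and Gstm3 windows 45.7%, within the 40.7 to 53.1% of all pairs of members.

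In vehicle, every member that passed the filter in both tissues was higher in liver than in the brain region compared. Liver levels, as CPM per kb of transcript so that genes can be compared, averaged 1585 ± 199 for Gstm1, 941 ± 46.8 for Gsta3, 426 ± 77.3 for Gstt1, 335 ± 58.6 for Gstp1 and 161 ± 23 for Gstm2 (SD, n = 4). Below them stood Gstm3 with 89.7 ± 16.8, Gstt3 with 78.8 ± 19.0, Gsta4 with 69.4 ± 6.33, Gstm4 with 46.1 ± 8.27 and Gsta2 with 16.9 ± 4.78 CPM per kb (SD, n = 4). In this order the library ranges of Gstt1 and Gstp1, of Gstm3 and Gstt3, and of Gstt3 and Gsta4 overlapped, and those of the other neighbours did not.

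The order differed in the brain. Gstp1, a pi-class enzyme, and Gstm1 led there, with 108 ± 14.2 and 96.7 ± 4.09 CPM per kb in prefrontal cortex and 142 ± 12.5 and 134 ± 7.79 CPM per kb in striatum (SD, n = 4), and their ranges overlapped in both regions. Gsta4, which conjugates the lipid peroxidation product 4-hydroxynonenal, came next with 24.8 ± 3.50 and 25.2 ± 3.53 CPM per kb. Gstt1 had 5.69 ± 1.67 and 8.99 ± 0.388 CPM per kb and Gstm4 had 4.21 ± 0.725 and 5 ± 0.743. Gstm2 and Gstt3 were at 1.07 and 0.523 CPM per kb in prefrontal cortex and at 1.93 and 2 in striatum, and their ranges overlapped in both regions. Gsta3, the second most abundant member in liver, was near the limit of detection, with 3 to 10 counts per vehicle library in prefrontal cortex and 2 to 12 in striatum.

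**Figure D1:**
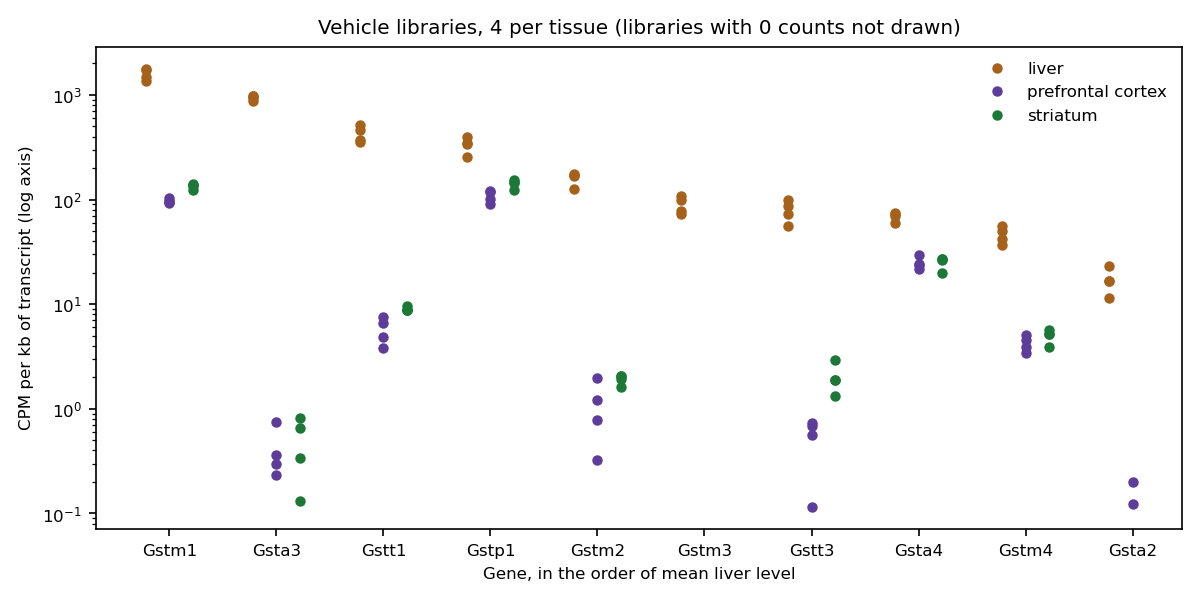
Level of each member in the 4 vehicle libraries of each tissue, as CPM per kb of transcript on a log axis; points are libraries and genes are ordered by their mean in liver. Gstm1 and Gsta3 lead in liver (1585 and 941 CPM per kb on average), and Gstp1 and Gstm1 lead in both brain regions.

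Against prefrontal cortex, Gsta4, Gstm1, Gstm4, Gstp1 and Gstt1 were higher in vehicle liver by edgeR's quasi-likelihood test (adjusted p under 0.05 after Benjamini-Hochberg adjustment over all genes tested, called below). Of all genes tested 38.9% were called higher. The differences ran from a log2 value of 2.41 for Gsta4 (SE 0.132, edgeR adjusted p 4.87e-10) and 2.57 for Gstp1 (SE 0.161, edgeR adjusted p 2.14e-09) to 7.15 for Gstt1 (SE 0.243, edgeR adjusted p 4.55e-12). In the vehicle libraries Gsta2, Gsta3, Gstm2 and Gstt3 passed the filter on low counts only through liver, so their comparison is given as levels with no test. Gstm2 was at 134 to 187 CPM in vehicle liver and 0.342 to 2.08 CPM in vehicle prefrontal cortex, and Gstt3 at 104 to 187 and 0.216 to 1.37 CPM. Gsta3 was at 1278 to 1429.9 CPM in vehicle liver and 0.342 to 1.08 CPM in vehicle prefrontal cortex. Gsta2 had 578 counts in vehicle liver and 3 counts in vehicle prefrontal cortex, a ratio of 195 after scaling to the TMM-scaled library totals. The exact 95% counting interval from 66.4 to 948 treats the pooled reads as independent and leaves out the spread between libraries. In vehicle striatum Gsta3 was at 0.193 to 1.19 CPM (2 to 12 counts), so there too it passed only through liver and no test is given. The members tested against striatum were all called higher in liver, where 38.1% of all genes were. Their log2 values ran from 2.23 for Gstp1 (SE 0.160) to 7.37 for Gstm2 (SE 0.192). The smallest differences were thus those of Gsta4 and Gstp1 in both comparisons.

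Between the brain regions Gstm1 and Gstp1 were called, both higher in striatum, where 11.0% of all genes were called higher. Gstt3 was at 2.49, 3.56, 5.49 and 3.54 CPM in the vehicle striatum libraries and at 1.37, 0.216, 1.05 and 1.30 CPM in those of prefrontal cortex, without overlap. In these libraries Gstt3 (2 to 15 counts each in prefrontal cortex) and Gstm2 (3 to 24 counts) passed the filter only through striatum, so no test is given for them. Gstm1 was at 159 to 181 CPM in striatum and 120.2 to 132 CPM in prefrontal cortex, also without overlap, a log2 difference of 0.39 (SE 0.0864, edgeR adjusted p 0.00508). Gstp1 differed by 0.33 (SE 0.109, edgeR adjusted p 0.0464), with 102 to 126 against 75.1 to 98.8 CPM, and this call was lost when any 1 library number was left out (edgeR adjusted p 0.0545 to 0.252). Without number 7 Gstm1 was not called either (log2 difference 0.35, edgeR adjusted p 0.0618). Gstt1 stood at a log2 difference of 0.57 (SE 0.198, edgeR adjusted p 0.0521) and was called in DESeq2 (adjusted p 0.0406) and in edgeR without number 4 (0.74, adjusted p 0.036), with adjusted p-values up to 0.218 when another number was left out. Gsta4 stood at -0.06. Oligodendrocyte markers, 5 of 5 measured, summed to 3931 to 6003 CPM in vehicle striatum and 2033 to 3067 CPM in prefrontal cortex, and neuron markers to 2913 to 3549 and 4827 to 5788 CPM. Their part in these differences was not tested.

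In liver no member was called at 6 mg/kg against vehicle, where 2.80% of all genes were called. Gsta3 and Gstm2 had the smallest p-values, both with lower levels, and 9 of the 10 members had a negative log2 fold change. That sign turned for Gstm4 (0.17) and Gstm3 (0.12) with a clock covariate and for Gstt3 (0.17) with a GC covariate, both described below. At an unadjusted p under 0.05 these 2 members were lower and none was higher, beside 11.1% of all genes called lower at that threshold. The median log2 fold change of the 10 members was -0.40, beside 0.02 over all 12968 genes tested.

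Gsta3 is an alpha-class enzyme that, in the mouse, detoxifies aflatoxin B1 epoxide. Vehicle libraries had 1278, 1365, 1413 and 1429.9 CPM, and the 6 libraries at 6 mg/kg had 349, 359, 540.3, 693, 1104 and 1405 CPM. The vehicle libraries lay close together (1372 ± 68.2 CPM, SD, n = 4) and the treated ones were spread over a wider range (742 ± 428 CPM, SD, n = 6), 5 of them below every vehicle library. The log2 fold change was -0.89 (SE 0.334, unadjusted p 0.0144, edgeR adjusted p 0.119). Gsta3 was called when library 56, the highest at 6 mg/kg, was left out (log2 fold change -1.17, edgeR adjusted p 0.0262), a fit in which 1302 genes were called in place of 363.

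At 1 mg/kg Gsta3 had 551, 573, 679.6, 814, 1129.5 and 1358 CPM, or -0.69 on the log2 scale (SE 0.334, unadjusted p 0.0513, edgeR adjusted p 0.593). At 0.1 mg/kg it had 882, 1213, 1413 and 1566 CPM, on both sides of the vehicle range, with a log2 fold change of -0.11 (SE 0.370). Medians therefore stood at 1389, 1313, 747 and 617 CPM from vehicle to 6 mg/kg. The slope over dose rank was a log2 value of -0.33 per step (SE 0.103, unadjusted p 0.00407, edgeR adjusted p 0.0623), which missed the threshold in edgeR and passed in DESeq2 (adjusted p 0.0234), where 1301 genes were called against 624 in edgeR.

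Gsta2 and Gsta4, the other alpha genes, were less even. Gsta2 had 9.89 to 20 CPM in vehicle and 0.469, 2.51, 3.69, 10.5, 17.1 and 27.8 CPM at 6 mg/kg, which put the lowest and the highest of all 20 libraries in the same dose group (log2 fold change -0.52, SE 0.566). Gsta4 had 58.8 to 72.3 CPM in vehicle, and at 6 mg/kg 4 libraries at 64.1 to 80.3 CPM and 2 at 18.1 and 31.9 CPM (log2 fold change -0.27, SE 0.265, edgeR adjusted p 0.549).

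Gstm2 of the mu class had 134, 180.2, 182 and 187 CPM in vehicle and 33.0, 68.0, 93.1, 113, 134 and 144 CPM at 6 mg/kg. The 3 higher vehicle libraries lay above all 6 treated ones, and vehicle library 3 lay among them. The log2 fold change was -0.81 (SE 0.288, unadjusted p 0.0103, edgeR adjusted p 0.103), and Gstm2 was also called in the fit without library 56 and its 1302 calls (-0.95, edgeR adjusted p 0.0426). The slope over dose rank was -0.26 per step (SE 0.0904, edgeR adjusted p 0.0886, DESeq2 adjusted p 0.0448). At 1 and 0.1 mg/kg its log2 fold changes were -0.34 (SE 0.290) and -0.24 (SE 0.320).

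The other mu genes had wide ranges at 6 mg/kg. Gstm3 had 95.7 to 142 CPM in vehicle and 23.5, 36.7, 83.0, 105, 129 and 144 CPM at 6 mg/kg (log2 fold change -0.44, SE 0.372, edgeR adjusted p 0.483). Gstm4 had 62.8 to 94.5 CPM in vehicle and 26.2 to 101 CPM at 6 mg/kg (log2 fold change -0.39, SE 0.280, edgeR adjusted p 0.402). Gstm1, the most abundant member, had 1750.4 to 2284 CPM in vehicle and 1067 to 2808 CPM at 6 mg/kg, and its log2 fold change was -0.07 (SE 0.245, edgeR adjusted p 0.882).

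None of the pi and theta genes had an unadjusted p under 0.05. Gstp1 had 209.7 to 326 CPM in vehicle and 148 to 340.4 CPM at 6 mg/kg (log2 fold change -0.14, SE 0.221). Gstt1, which conjugates small halogenated compounds such as dichloromethane, had 392 to 575 CPM in vehicle and 421 to 589 CPM at 6 mg/kg, the only positive value (0.05, SE 0.172). Its neighbour Gstt3 had 104 to 187 CPM in vehicle and 32.7, 49.0, 77.2, 137, 159 and 216 CPM at 6 mg/kg (-0.41, SE 0.408).

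**Figure D2:**
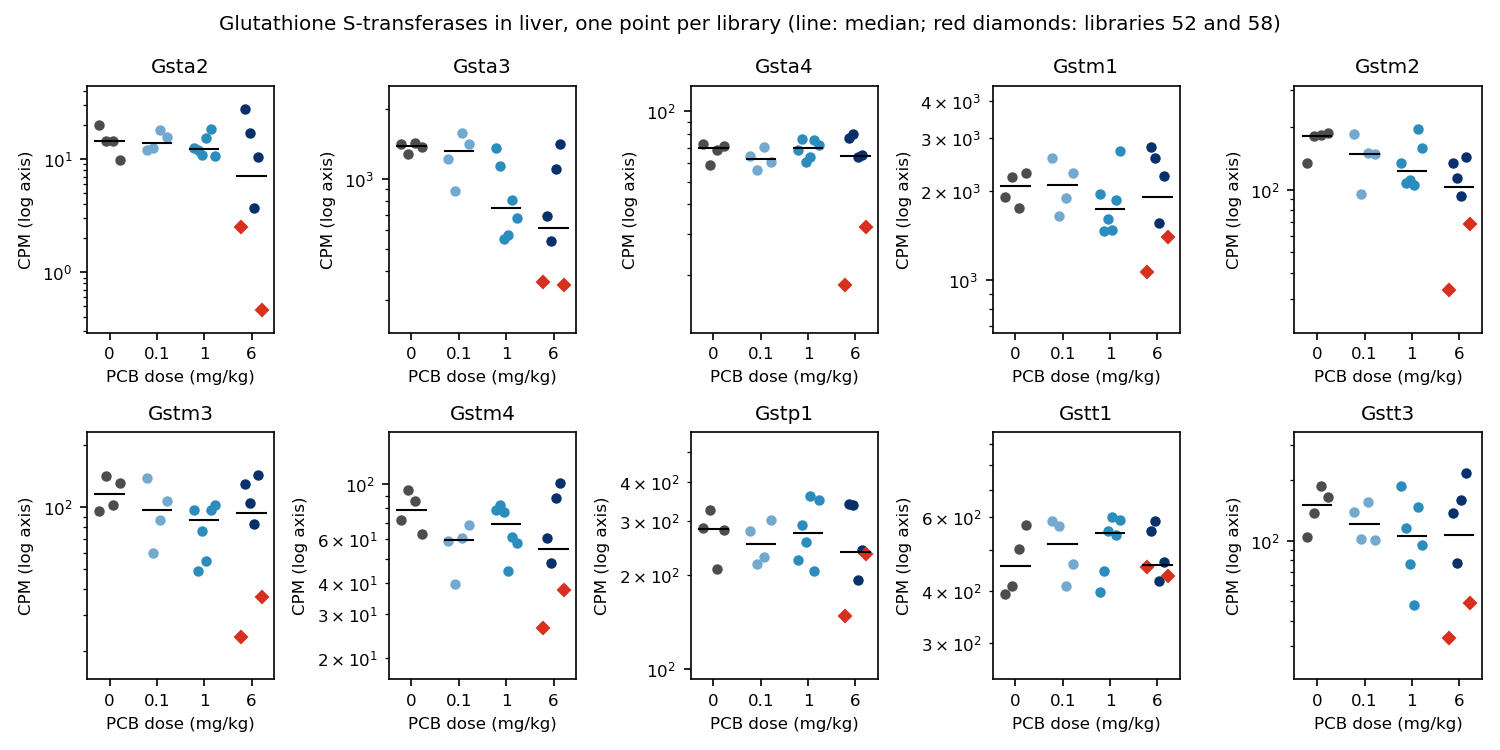
CPM of the 10 members in each of the 20 liver libraries by dose, on log axes that differ between panels; lines are group medians and red diamonds are libraries 52 and 58 at 6 mg/kg. Both red libraries lie below every vehicle library for Gsta2, Gsta3, Gsta4, Gstm1, Gstm2, Gstm3, Gstm4 and Gstt3, and within the vehicle range for Gstt1.

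Libraries 52 and 58 at 6 mg/kg were low for most members. They lay below every vehicle library for 9 and 8 members, while 36.1% and 35.3% of all genes tested did so in those libraries. The other libraries at 6 mg/kg lay below every vehicle library for 6 members (library 55, 24.8% of all genes), 4 (library 54, 31.5%), 2 (library 53, 30.5%) and 0 (library 56, 23.5%). Libraries 53 and 54 lay above every vehicle library for 4 members each, close to the 29.7% and 31.4% of all genes. Low values were also found at the other doses: library 25 at 0.1 mg/kg lay below every vehicle library for 7 members (27.2% of all genes) and library 46 at 1 mg/kg for 6 (28.9%). Without library 52 the log2 fold changes of Gsta3 and Gstm2 were -0.74 (edgeR adjusted p 0.223) and -0.63 (edgeR adjusted p 0.160), and without library 58 they were -0.74 and -0.72. Snap25, a neuronal transcript, was at 21.6 CPM in library 52 and 3.75 CPM in library 58, beside 0 to 13.4 CPM in vehicle. Libraries 52 and 58 also had the highest TMM factors of the liver libraries (1.22 and 1.103), which lower their CPM. The part of this scaling in their values was not tested.

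Measures that differed between vehicle and 6 mg/kg in liver are given beside these values. The GC slope of a library, the Spearman correlation across genes between its deviation from the mean and the transcripts' GC content, was -0.293 to -0.165 in vehicle and -0.0277 to 0.245 at 6 mg/kg, without overlap. Over the 20 libraries its Pearson r with log2 CPM was -0.70 for Gsta3, whose transcript has the lowest GC content of the members (42.6%), and -0.41 for Gstm2. For the other members r ran from -0.445 (Gstt3, 52.3% GC) to 0.283 (Gstt1, 54.9% GC), with -0.358 for Gsta2 (47.4% GC). With the GC slope as a covariate the fold changes were -0.32 for Gsta3 (edgeR adjusted p 0.820) and -0.72 for Gstm2 (edgeR adjusted p 0.558). Dbp, a clock output gene, was at 41.4 to 181 CPM in vehicle and 278 to 368 CPM at 6 mg/kg, a rise of 1.68 on the log2 scale (SE 0.321, edgeR adjusted p 0.0134). Its level was already 227 to 306 CPM at 0.1 mg/kg and 175 to 336 CPM at 1 mg/kg. Arntl, a core clock gene, fell by 1.98 at 6 mg/kg (SE 0.480, edgeR adjusted p 0.0333). With the difference of log2 CPM between Dbp and Arntl as a covariate, Gsta3 stood at -0.43 and Gstm2 at -0.77, neither called. Since these measures and the dose changed together between vehicle and 6 mg/kg, their parts cannot be told apart.

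Marker lists of liver cells overlapped between vehicle and 6 mg/kg. The hepatocyte list (5 of 5 measured) summed to 99246 to 117708 CPM in vehicle and 86249 to 135827 CPM at 6 mg/kg, the stellate cell list (4 of 4) to 182 to 291 and 85.2 to 254 CPM, and the neuron list (5 of 5) to 6.31 to 35.5 and 7.28 to 44.2 CPM. The macrophage list (5 of 5) summed to 92.0 to 128 and 116 to 212 CPM, and red cell markers (3 of 5) to 47.8 to 3067 and 69.3 to 229.5 CPM. The list of pericentral hepatocyte genes, the zone where many glutathione S-transferases are enriched, summed to 7041 to 9267 CPM in vehicle and 4812 to 11074 CPM at 6 mg/kg, with Cyp1a2 the 1 of 7 genes called. Their part in the members' values was not tested.

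No member was called in the other liver comparisons. At 1 mg/kg 0 members were called and 0 had an unadjusted p under 0.05 (edgeR), where 0 and 8.44% of all genes did, and at 0.1 mg/kg both counts were again 0, where 0.0154% and 4.10% of all genes did. Against 0.1 mg/kg in place of vehicle, 6 mg/kg gave 0 calls (0.0386% of all genes), with Gsta3 lower at an unadjusted p of 0.0302 (log2 difference -0.77, SE 0.334), where 6.10% of all genes were lower at an unadjusted p under 0.05. For the slope over dose rank 0 members were called by edgeR (4.81% of all genes) and Gsta3 and Gstm2 were lower at an unadjusted p under 0.05 (11.4% of all genes). DESeq2 also called 0 members at 6, 1 and 0.1 mg/kg against vehicle, in liver and in both brain regions. Of the pathway lists only Cyp2b10 was called between 6 and 0.1 mg/kg in liver (5.02, SE 0.847, edgeR adjusted p 0.0395). The 3 dose comparisons of a tissue share the vehicle libraries.

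**Figure D3:**
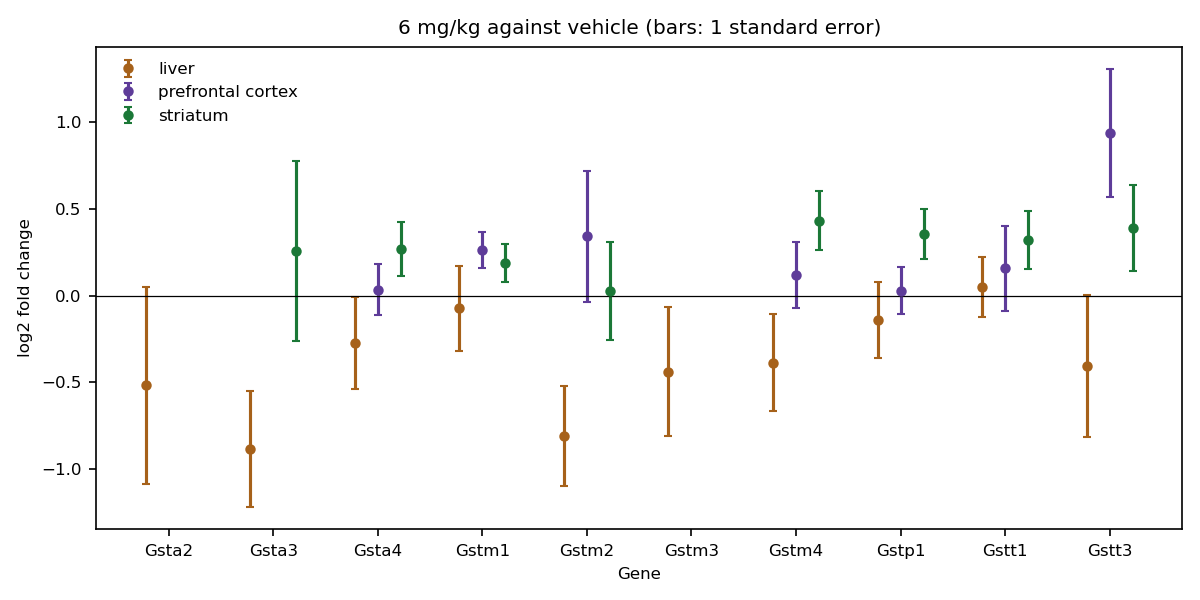
Log2 fold change of each member at 6 mg/kg against vehicle in liver, prefrontal cortex and striatum; points are edgeR estimates and bars are 1 standard error. No point passed the adjusted threshold: the lowest in liver are Gsta3 (-0.89) and Gstm2 (-0.81), and the highest is Gstt3 in prefrontal cortex (0.94).

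Members varied together from library to library in liver. Over the 20 libraries the Pearson r of log2 CPM had a median of 0.58 over the 45 pairs of members and was over 0.5 in 57.8% of them, beside a median of -0.001 and a share of 8.47% over all pairs of tested genes. The closest pairs were Gstm2 with Gstm3 (0.89), Gstm1 with Gstm3 (0.88), Gsta3 with Gstt3 (0.84) and Gsta4 with Gstm2 (0.83). Gstt1 had a negative r with Gsta3 (-0.34), Gstm4 (-0.305) and its neighbour Gstt3 (-0.16), and a positive r of 0.156 to 0.363 with the other 6 members. After the mean of each dose group was taken out, the median r over the pooled 20 libraries was 0.55. The spread was widest at 6 mg/kg for every member but Gstt1, and libraries 52 and 58 were among the lowest 2 of all for 9 and 7 members. An r inside each single group was not calculated. The points share libraries, and reads shared between similar mu genes could add to their r.

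**Figure D4:**
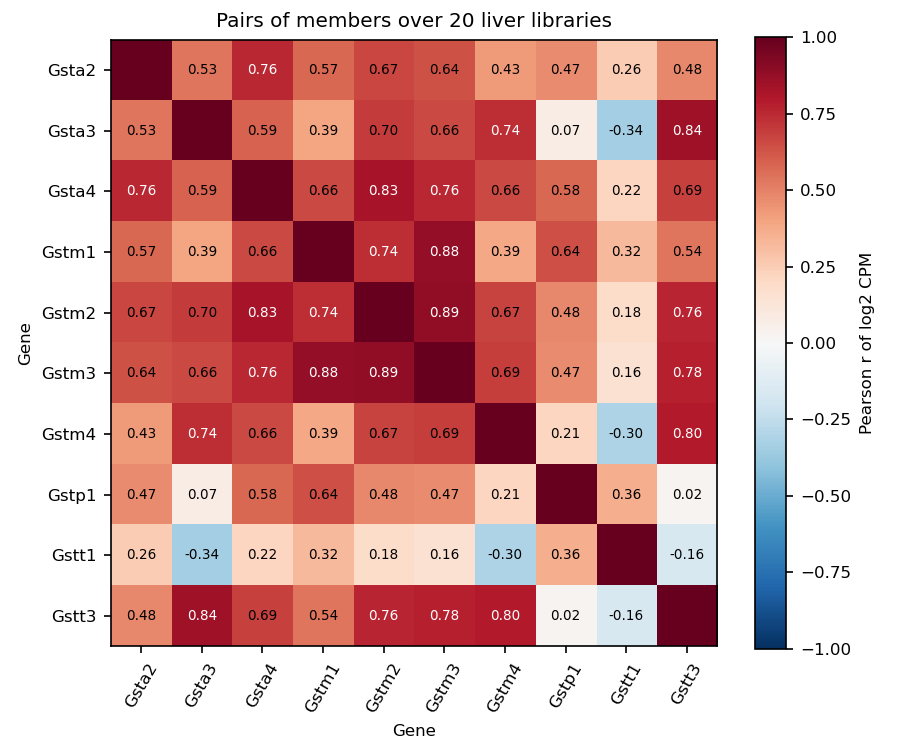
Pearson r of log2 CPM between pairs of members over the 20 liver libraries; red is positive and blue negative. Gstm2 and Gstm3 have the highest value (0.89), and the row of Gstt1 holds the lowest, -0.34 with Gsta3.

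The genes whose liver pattern was most like a member's, over the same 20 libraries, were these. Gsta3 was followed by Chmp5 (r 0.97), Sypl (0.97) and Akr1c13 (0.96), Gstm2 by Qdpr (0.92), Ctsl (0.92) and Prxl2a (0.92), and Gstm4 by Pttg1ip (0.96), Tpi1 (0.94) and Septin9 (0.93).

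Among other cytosolic glutathione transferases, 12 of 16 listed were tested in liver and 1 was called at 6 mg/kg, beside the 2.80% of all genes that were called there. Gstt2, another theta enzyme, had 55.8, 78.8, 91.2 and 110.2 CPM in vehicle and 119.7, 166, 205, 206, 225 and 271 CPM at 6 mg/kg, without overlap, as in 6.76% of all genes tested. It rose by 1.24 on the log2 scale (SE 0.283, edgeR adjusted p 0.0271), and its slope over dose rank was 0.39 per step (SE 0.0853, edgeR adjusted p 0.0199). With the clock covariate no gene was called at 6 mg/kg, Gstt2 included. The list's median log2 fold change was -0.05. Gstm7 of the mu class stood at -0.88 (SE 0.275, edgeR adjusted p 0.0777), with 94.7 to 110.3 CPM in vehicle and 23.1 to 85.0 CPM at 6 mg/kg. Of the membrane-bound transferases 4 of 6 were tested and 0 called, with Mgst1 at 0.07 (SE 0.187).

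Later steps of the pathway held 2 called genes of 9 tested, to be read, as the counts that follow, beside 2.80% of all genes. Kyat1, a cysteine conjugate beta-lyase, had 71.2 to 92.0 CPM in vehicle and 115 to 292 CPM at 6 mg/kg and rose by 1.15 on the log2 scale (SE 0.214, edgeR adjusted p 0.0134). Abcc3, an exporter of conjugates, had 96.8 to 124 CPM in vehicle and 144 to 321 CPM at 6 mg/kg and rose by 1.08 (SE 0.238, edgeR adjusted p 0.0245). Of the 12 tested genes that make or reduce glutathione 0 were called, with 2 higher and 1 lower at an unadjusted p under 0.05, where 1696 and 1440 of all 12968 genes were (median log2 fold change 0.03). Of 14 genes of the NRF2 system 1 was called, Mafg, a small Maf partner of NRF2, with 36.3 to 59.0 CPM in vehicle and 87.1 to 124 CPM at 6 mg/kg (log2 fold change 0.98, SE 0.155, edgeR adjusted p 0.00592). Of 10 genes of the CAR and PXR system 3 were called higher: Cyp2b10 (6.01, SE 0.912), Ces2a (1.01, SE 0.173) and Nr1i2, which encodes PXR (0.71, SE 0.187), by edgeR adjusted p-values of 0.00592, 0.00932 and 0.0441. Of 5 genes of the AHR system only Cyp1a2 was called (1.44, SE 0.231, edgeR adjusted p 0.00592). Of 11 clock genes 3 were called higher (Dbp, Tef and Per3) and 1 lower (Arntl), and of 7 periportal genes 0. Over all genes, 1 was called at 6 mg/kg in liver with the GC slope covariate and 0 with the clock covariate. The latter is built from Dbp and Arntl, so it is no test of those 2 genes. In both brain regions 0 genes of any of these lists were called at 6 mg/kg by edgeR.

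In prefrontal cortex no member was called at any dose, nor was any other gene at 6, 1 or 0.1 mg/kg (0% of 14838 genes). Gstt3 and Gstm1 were higher at 6 mg/kg at an unadjusted p under 0.05, 2 of the 7 members tested, beside 4.28% of all genes. Gstm1 had 120.2, 122, 124 and 132 CPM in vehicle and 137, 139, 147, 148, 149 and 177 CPM at 6 mg/kg. These groups did not overlap, as in 3.11% of all genes tested. The log2 fold change was 0.26 (SE 0.106, unadjusted p 0.0199, edgeR adjusted p 0.448).

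Gstt3 had 0.216, 1.05, 1.30 and 1.37 CPM in vehicle and 1.23 to 2.91 CPM at 6 mg/kg, or 2 to 15 counts and 12 to 31 counts per library. The log2 fold change was 0.94 (SE 0.368, unadjusted p 0.0172, edgeR adjusted p 0.441), and 0.63 without vehicle library 7, the lowest. At 1 mg/kg Gstt3 had 1.42 to 2.75 CPM and did not overlap with vehicle, as in 2.33% of all genes (log2 fold change 0.96, SE 0.368, unadjusted p 0.0153), and it was the only member with an unadjusted p under 0.05 there (4.28% of all genes higher). At 0.1 mg/kg Gstm1 (0.23, SE 0.110) and Gstm2 (0.84, SE 0.376) were the 2 members higher at an unadjusted p under 0.05, beside 3.40% of all genes.

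Across doses the prefrontal slope of Gstt3 was 0.30 per step (SE 0.112, unadjusted p 0.0124, edgeR adjusted p 0.334), where 4.21% of all genes rose at an unadjusted p under 0.05 and 0.0202% were called. Between 6 and 0.1 mg/kg no member had an unadjusted p under 0.05 or was called (10.1% and 0.108% of all genes). Gsta4, Gstm4, Gstp1 and Gstt1 had log2 fold changes of 0.03 to 0.16 at 6 mg/kg, and Gstm2 of 0.34 (SE 0.376). Gsta2 was at 0 counts in all 6 libraries at 6 mg/kg and at 0 to 2 counts in vehicle, and Gsta3 at 0 to 4 and 3 to 10 counts, too few to be tested. The oligodendrocyte list summed to 2033 to 3067 CPM in vehicle and 2767 to 3262 CPM at 6 mg/kg, and the neuron list to 4827 to 5788 and 5009 to 5769 CPM, while red cell markers (3 of 5 measured) summed to 42 to 583 and 12.1 to 80.0 CPM. Their part in the members' values was not tested. Over 21 libraries the genes most like Gstt3 were Nap1l5 (r 0.81), Yars2 (0.78) and Pdlim2 (0.77), at counts this low.

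In striatum all 8 members tested had positive log2 fold changes at 6 mg/kg, from 0.03 for Gstm2 to 0.43 for Gstm4, and none was called (0% of 15118 genes were). Their median was 0.29, beside 0.01 over all genes. Gstm4 had 6.72, 8.86, 8.89 and 9.67 CPM in vehicle and 9.66, 10.5, 11.5, 11.7, 12.3 and 13.4 CPM at 6 mg/kg, so that the groups met at a single pair of libraries. Its log2 fold change was 0.43 (SE 0.168, unadjusted p 0.0169, edgeR adjusted p 0.241). Gstp1 had 102, 119, 120.4 and 126 CPM in vehicle and 110.4, 112, 143, 148, 150.1 and 232 CPM at 6 mg/kg, or 0.35 higher on the log2 scale (SE 0.145, unadjusted p 0.0220, edgeR adjusted p 0.257), 0.19 without library 54 and 0.10 after correction for GC content and length (edgeR adjusted p 0.770). These 2 members were higher at an unadjusted p under 0.05, beside 7.48% of all genes.

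**Figure D5:**
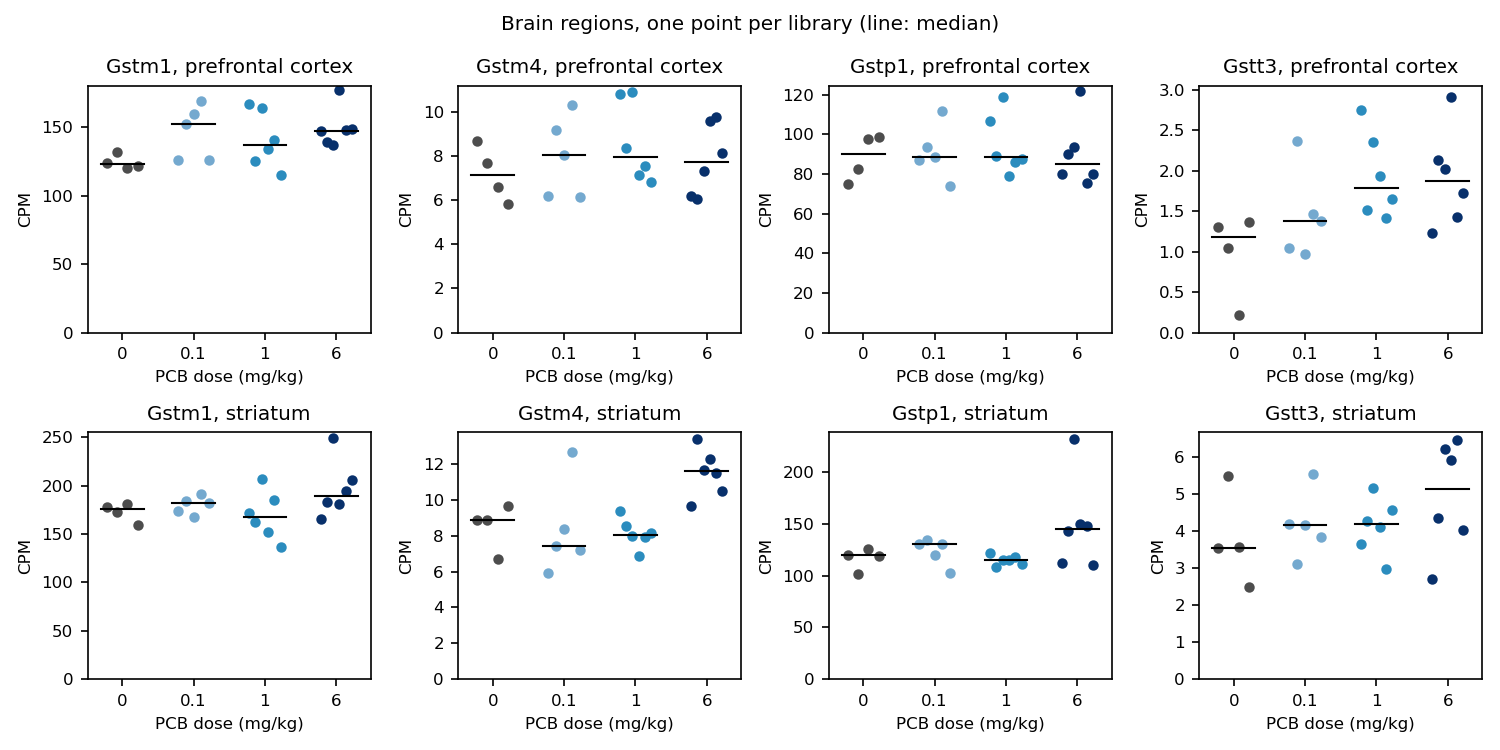
CPM of Gstm1, Gstm4, Gstp1 and Gstt3 in each library of prefrontal cortex and striatum by dose, on linear axes from 0; lines are group medians. Gstm4 in striatum stands at 9.66 to 13.4 CPM at 6 mg/kg and 6.72 to 9.67 CPM in vehicle.

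Against 0.1 mg/kg the striatal Gstm4 at 6 mg/kg was higher by a log2 value of 0.47 (SE 0.158, unadjusted p 0.00646, edgeR adjusted p 0.0879), where 2.91% of all genes were called and 11.6% were higher at an unadjusted p under 0.05. It was called in DESeq2 (adjusted p 0.0489), with 1104 genes called against 440 in edgeR. It was also called in edgeR without library 28 at 0.1 mg/kg (log2 difference 0.67, adjusted p 0.0356, 442 genes called), which had 12.7 CPM while the other 4 had 5.92 to 8.36 CPM. At 1 and 0.1 mg/kg against vehicle no member was called or had an unadjusted p under 0.05, where 7.36% and 2.53% of all genes had one. Over dose rank the slopes of Gstm4 (0.14 per step, SE 0.0563) and Gstp1 (0.10, SE 0.0471) had unadjusted p-values of 0.0177 and 0.0381 (7.05% of all genes rose at that threshold, 0% were called). With dose in mg/kg in place of its rank both were called, as were 1862 of all genes.

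The GC slope of the striatal libraries was 0.305 to 0.466 at 6 mg/kg and -0.436 to 0.393 in vehicle, and its Pearson r with log2 CPM over 21 libraries was 0.58 for Gstm4, 0.53 for Gstp1 and 0.59 for Gstt1. With it as a covariate Gstm4 stood at 0.37 and Gstp1 at 0.25 (edgeR adjusted p 0.485 and 0.543). Oligodendrocyte markers summed to 5947 to 8428 CPM at 6 mg/kg and 3931 to 6003 CPM in vehicle, astrocyte markers to 1338 to 2248 and 2241 to 2387 CPM, and neuron markers to 2600.3 to 3009.8 and 2913 to 3549 CPM. Red cell markers (3 of 5 measured) summed to 43.8 to 139 and 68.2 to 545 CPM. Their part in the members' values was not tested. Over 21 libraries the genes most like Gstm4 were Uqcc1 (r 0.83), Bcam (0.83) and Slc25a39 (0.82). Of the pathway lists, 2 genes were called in striatum between 6 and 0.1 mg/kg, beside 440 of all 15118 genes tested (2.91%). They were Kyat1 (log2 difference 0.45, SE 0.110, edgeR adjusted p 0.0355) and Dbp (0.54, SE 0.148, edgeR adjusted p 0.0461).

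The difference in the 6 mg/kg effect between tissues was tested for each member, and none was called. Between liver and prefrontal cortex 0.899% of all genes were called, and Gstm2 had the smallest p of the 7 members that passed the filter in both tissues (log2 difference of effects -1.15, SE 0.544, unadjusted p 0.0459, edgeR adjusted p 0.240), the 1 member lower at an unadjusted p under 0.05 beside 9.64% of all genes. Among the pathway lists 5 genes were called between liver and prefrontal cortex: G6pdx, which supplies NADPH for glutathione reduction (-1.98, SE 0.426), Arntl (-1.98, SE 0.398), Mafg (1.15, SE 0.190), Tef (1.41, SE 0.304) and Per3 (2.04, SE 0.472), by edgeR adjusted p-values of 0.0147 to 0.0432. With the library number as a replicate block fewer than 5 calls over all genes remained in place of 129, so not all of these calls were kept. Between liver and striatum 0.0277% were called, and Gstm4 was the 1 of 8 members lower at an unadjusted p under 0.05 (-0.83, SE 0.384, unadjusted p 0.0421, edgeR adjusted p 0.334), beside 6.43% of all genes. Between striatum and prefrontal cortex 0 of 7 members had an unadjusted p under 0.05 (6.43% of all genes) and 0% of all genes were called.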

How the data were processed

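For each tissue there was 1 table of raw counts by Entrez gene, deposited by the authors. FastQC, HISAT2 and mm10 are named in the submitters' processing notes; the counting tool, the use of strand and the handling of reads with several matches are not given in the sources used here. Per the labels' protocols, RNA came from TRIzol and spin columns, with mRNA enriched by poly(A) capture or by depleting rRNA. The smallest total of a listed gene was 10 counts, so genes under it were not analysed here. No pair of libraries of a group agreed within sampling noise (smallest chi-square per degree of freedom 2.94).

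Symbols came from RefSeq (GRCm38.p6), promoter windows from RefSeq, and transcript length and GC content from GENCODE vM21, its longest protein-coding transcript where there was one. The counts of a tissue, all dose groups together, went into 1 edgeR 4.0.16 model (R 4.3.3; filterByExpr, TMM scaling, robust quasi-likelihood test, Benjamini-Hochberg over all genes, threshold 0.05). Tissues were compared on vehicle libraries, and interactions on vehicle and 6 mg/kg libraries, over genes listed in both tables. CPM are TMM-scaled, log2 CPM used a prior count of 2, and standard errors are the log2 fold change over the square root of F. The fits were tested on simulated data. Alternatives were DESeq2 1.42.0, median-ratio size factors, other filters, a fit on 2 groups, 1 surrogate variable (sva 3.50.0), summed near-identical pairs, corrections for GC content and length, a clock covariate, a replicate block, and each replicate left out; the GC slope covariate was chosen after seeing the data.

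The members and gene lists were chosen with earlier results of these data known. All 10 members are named; of each list, the called genes (at most 10); and the 3 genes most correlated with the members of smallest p (3 in liver, 1 in each brain region). Gstm7, Mgst1 and the marker genes were named beside them after their values were seen.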

Additional observations from a re-analysis of the deposited data

Results flagged for a closer look

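In 100 sets of libraries (1 member in 1 dose group of 1 tissue) the most extreme library was compared with the rest of its group, and 7 stood apart by Dixon's criterion, where chance gives about 5. In liver, Gstm2 in vehicle library 3 was at 134 CPM, below the other 3 at 180.2 to 187 CPM. In prefrontal cortex, Gstm1 in 6 mg/kg library 55 was at 177 CPM against 137 to 149 CPM, and Gstt1 in 1 mg/kg library 45 was at 9.19 CPM against 6.09 to 7.21 CPM. In striatum, 6 mg/kg library 54 stood apart for both Gstp1 (232 CPM against 110.4 to 150.1 CPM) and Gsta4 (40.0 CPM against 24.3 to 29.8 CPM). Among striatal vehicle libraries, Gsta4 in library 7 was at 19.5 CPM against 26.0 to 26.7 CPM, and Gstt1 in library 8 was at 10.6 CPM against 9.63 to 9.78 CPM. No liver library at 6 mg/kg stood apart by this criterion for any member.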

How the results depend on the processing

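The number of members called was unchanged or within 1.5 times in 257 of 263 alternatives. It became 2 (Gsta3, Gstm2) for the liver slope with DESeq2, 1 (Gstm4) for striatum 6 against 0.1 mg/kg with DESeq2, and 2 (Gstm4, Gstp1) for the striatal slope over mg/kg. With a replicate left out it ran from 0 to 2 for liver at 6 mg/kg, 0 to 1 for striatum 6 against 0.1 mg/kg and 1 to 3 for vehicle striatum against prefrontal cortex. The last of these counts includes Gstt3, which is given above as levels only. Log2 fold changes in liver at 6 mg/kg changed sign for Gstm4 (0.17) and Gstm3 (0.12) with the clock covariate and for Gstt3 (0.17) with the GC slope covariate; the cause was not tested. Single fold changes passed the threshold in 8 other alternatives (Gsta3, Gstm2, striatal Gstm4, and Gstt1 between brain regions) and lost it in 6 (Gstm1 and Gstp1 between brain regions, Gstp1 also with median-ratio size factors, adjusted p 0.0502). With the library number as a replicate block, 8 members were called in vehicle liver against striatum, 3 in striatum against prefrontal cortex, the 7 that passed in the fits of both tissues in liver against prefrontal cortex, and 0 in the interactions, as without it. The vehicle counts include members given above as levels only (Gsta3, Gstm2 or Gstt3). Over all genes the liver against prefrontal cortex interaction gave 2 calls in place of 129. Libraries with the same number had a mean correlation of deviations of -0.0052 (liver and prefrontal cortex), 0.0241 (liver and striatum) and 0.117 (striatum and prefrontal cortex, over 0.1 for 6 of 10 numbers, with 2 of 10 closest to their own number), so the numbers were not taken to pair them. Over all genes, the count called at 6 mg/kg in liver (363) was 1138 with DESeq2, 130 after an offset for GC content and length, 1 with the GC slope covariate, 0 with the clock covariate and 13 in a fit on the 2 groups alone; leaving out 1 library gave 3 (without vehicle library 4) to 1302 (without library 56). Depth limited Gsta2 and Gsta3 in the brain and Gstt3 and Gstm2 in prefrontal cortex, at 0 to 43 counts per library.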
